A study of Rattus norvegicus with 18 samples.

Results

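Trim54, Itga7, Flnc, Rrad and Nes were described in the mid-shaft of the rat femur, with and without a fracture, at 3 ages. These 5 genes were selected, with earlier results of the same arrays known, as muscle stress genes with a higher signal in older than in young rats, so that difference is a description here and not a finding. They are 5 of the 4736 genes to which the array annotation gives a probe set of their own, and they were found through a single matching gene symbol. The arrays held 1 probe set for Trim54, 3 for Itga7, 2 for Flnc, 1 for Rrad and 2 for Nes, and the brightest probe set of a gene, by mean log2 signal, led.

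Female Sprague-Dawley rats of 3 ages were used: 6 weeks (young), 26 weeks (adult) and 52 weeks (older) at fracture. At each age the femur was taken without a fracture (sham controls, called no fracture) or at 3 days and 1, 2, 4 and 6 weeks after a simple transverse mid-shaft fracture held by an intramedullary rod. The segment comprised external callus and cortical bone with its marrow. The 18 arrays described here are labelled as one series (Series 2) of a larger experiment, in which the study ran further arrays of independent samples at each age and time that are not analysed here. This series has 1 array for each age at each time, and each array read RNA pooled from 2 rats. Within it the ages therefore stood in as replicates when times were compared, and p-values measure only the spread between these samples. Signal is the intensity of a probe set on an array scaled to a target of 500. Changes are compared between arrays for one probe set. Between probe sets signal served to pick the leading set and to filter by mean signal. Sums of marker lists add the signals of different probe sets, so the brightest genes weigh most in them.

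In striated muscle the contractile units are anchored end to end at the Z-disc and tied at the costamere to laminin outside the fibre. Filamin C, encoded by Flnc, crosslinks actin at the Z-disc and costamere, and the integrin alpha 7 chain of Itga7 is part of a laminin receptor of the muscle fibre. Trim54 (MuRF3) is a muscle RING finger protein that binds microtubules and the Z-disc, Nes encodes nestin, an intermediate filament protein of precursor and regenerating muscle cells as well as of neural precursors and endothelium, and Rrad encodes a Ras-related GTPase that binds the beta subunit of voltage-gated calcium channels.

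The stretch before the annotated gene start was looked at for muscle motifs because the 5 genes are transcribed in muscle and were chosen together. RefSeq (GRCr8) gave the 250 bases before the start for Trim54, Flnc and Nes. Itga7 and Rrad are named only. The sequences of Trim54 (minus strand, chr6:30978476-30978725) and Flnc (plus strand, chr4:58999297-58999546) are printed because each holds an MCAT box, CATTCC searched on both strands, which is in capitals.
Trim54: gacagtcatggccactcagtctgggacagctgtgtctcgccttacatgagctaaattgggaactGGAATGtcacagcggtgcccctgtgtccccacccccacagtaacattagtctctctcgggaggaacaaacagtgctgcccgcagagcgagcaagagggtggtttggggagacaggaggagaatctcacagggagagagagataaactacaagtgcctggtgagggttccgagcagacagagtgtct
Flnc: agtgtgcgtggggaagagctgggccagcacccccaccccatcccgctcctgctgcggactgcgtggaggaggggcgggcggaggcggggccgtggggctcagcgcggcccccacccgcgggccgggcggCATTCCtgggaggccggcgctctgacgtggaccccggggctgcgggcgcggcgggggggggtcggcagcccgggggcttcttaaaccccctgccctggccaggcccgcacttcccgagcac
The MCAT box lay 186 bases before the start in Trim54 and 121 bases before it in Flnc, and 12.1% of all 33469 promoters of the same length held one. Trim54 also held 2 E boxes (CANNTG), a motif found in 65.5% of all promoters, whereas Flnc and Nes held 0. None of the 3 held a CArG box (1.5% of all promoters) or a MEF2 site (2.96%), and Nes held 0 of the 4 motifs. These are matches of letters only.

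The 18 arrays had median signals of 131.9 to 164.1, and 12.3% to 20.3% of probe sets lay below a signal of 20. The actin 3'/5' ratio, a sign of RNA quality and of probe position, was 1.48 to 2.72 with a fracture and 2.1 to 2.61 with no fracture. It was 1.48 to 1.88 at 3 days and 1 week. The arrays had a probe set for 24 of 29 listed muscle fibre genes, and genes of a list with a probe set are called measured. Muscle transcripts were in the segment: the summed signal of these 24 genes was 195921 to 229878 with no fracture. In a bulk segment, fewer muscle cells and less RNA per cell cannot be told apart.

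The direction in older rats varied among the genes and times. Trim54, Itga7 and Flnc were higher in older than in young rats at 6 of 6 times. Rrad was higher at 4 of 6 times and lower at 4 and 6 weeks, and Nes was higher at 5 of 6. So the name muscle stress genes higher in older rats holds at every time for Trim54, Itga7 and Flnc and at some times for Rrad and Nes. This is the contrast the genes were chosen on. Over all 8740 probe sets 0.206% were called higher and 0.24% lower in it, and nothing is read from the genes' own calls.

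**Figure D1:**
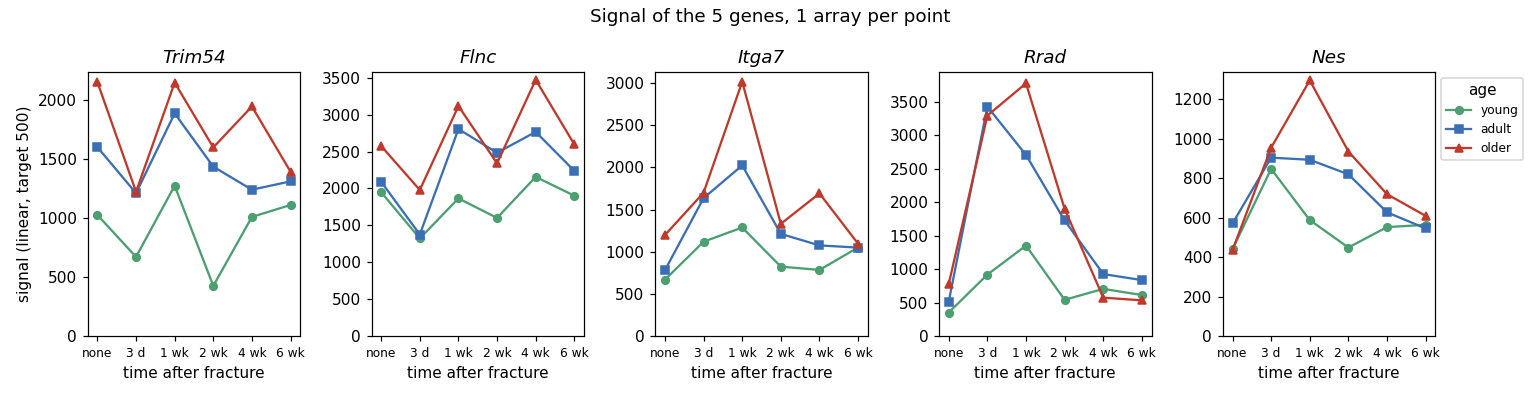
Signal (linear scale, array target 500) of the leading probe set of each gene against time after fracture, with 1 array per point and 1 line per age. Flnc and Trim54 dip at 3 days at every age, whereas Itga7, Rrad and Nes are highest at 3 days or 1 week at every age.

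Trim54, at the Z-disc and microtubules, had signals of 1025.1 with no fracture and 670.7, 1272.6, 425.9, 1008.6 and 1109.6 at 3 days and 1, 2, 4 and 6 weeks in young rats. In adult rats the signals were 1598, 1209.6, 1883.6, 1433.2, 1238.7 and 1309.2 in the same order of times. In older rats they were 2148.3, 1221.1, 2143.5, 1595.7, 1942.3 and 1390.1. The older value was the highest of the 3 ages at every time and the young value the lowest, and the young array at 2 weeks was the lowest of the 18. Older minus young averaged 0.98 ± 0.52 on the log2 scale (SD over 6 times), 1.97-fold. It was 1.91 at 2 weeks and 0.33 at 6 weeks, and without the 2-week arrays the average was 0.79.

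Flnc, the actin crosslinker, had signals of 1949.4, 1324.1, 1865.9, 1601.1, 2156.6 and 1901.9 in young rats in that order. Adult rats had 2090.1, 1377.2, 2803.7, 2483.5, 2765.2 and 2238.6. Older rats had 2573.9, 1979.5, 3115.5, 2339.5, 3470.2 and 2596.1. The young value was the lowest at every time, and the older value was the highest at all times but 2 weeks. Older minus young varied less from time to time for Flnc than for the other genes, at 0.57 ± 0.13 (log2, SD over 6 times) and between 0.4 and 0.74. The second Flnc probe set gave 0.83 ± 0.21 and was higher in older rats at 6 of 6 times.

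Itga7, the laminin receptor chain, had signals of 670.1, 1119.6, 1287.8, 824.6, 785.7 and 1051 in young rats. Adult rats had 782.5, 1635.2, 2023.2, 1212.1, 1075.7 and 1049.7. Older rats had 1198.8, 1699.7, 3012.8, 1331.3, 1691.2 and 1095.3. The array of older rats at 1 week was the highest, and at 6 weeks the ages lay together. Older minus young was 0.75 ± 0.42 on the log2 scale, 1.69-fold, with 1.23 at 1 week and 0.06 at 6 weeks.

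Rrad, the calcium channel regulator, had signals of 355, 920.8, 1353.3, 544.6, 707.8 and 615.8 in young rats. Adult rats had 518.1, 3428.8, 2706.9, 1729.5, 929 and 838.8. Older rats had 779.7, 3294.3, 3776.1, 1903.1, 576.8 and 536.5. Adult and older rats stood well above young rats at 3 days and 1 and 2 weeks, and older rats had the lowest signal of the 3 ages at 4 and 6 weeks. Older minus young was 1.84, 1.48 and 1.81 at 3 days and 1 and 2 weeks, against -0.3 and -0.2 at 4 and 6 weeks, and its mean of 0.96 had an SD of 0.97 over the times. Relative to its own age with no fracture, the 3-day signal was 2.59-fold in young, 6.62-fold in adult and 4.23-fold in older rats.

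Nes, the intermediate filament gene, had signals of 440.5, 846.6, 587.6, 449, 552.2 and 563.7 in young rats. Adult rats had 570.5, 903.4, 892.7, 819.1, 626.9 and 545.5. Older rats had 435.4, 953.9, 1294.3, 934.5, 718.5 and 609. The ages lay close together at 3 days and 6 weeks, and older and young rats had nearly the same signal with no fracture. Older minus young was 1.14 at 1 week and 1.06 at 2 weeks and between -0.02 and 0.38 at the other times, with a mean of 0.47 ± 0.5 (log2, SD over 6 times). The second Nes probe set had a mean signal of 20.8, at the floor of 20, and gave -0.23 ± 0.66.

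**Figure D2:**
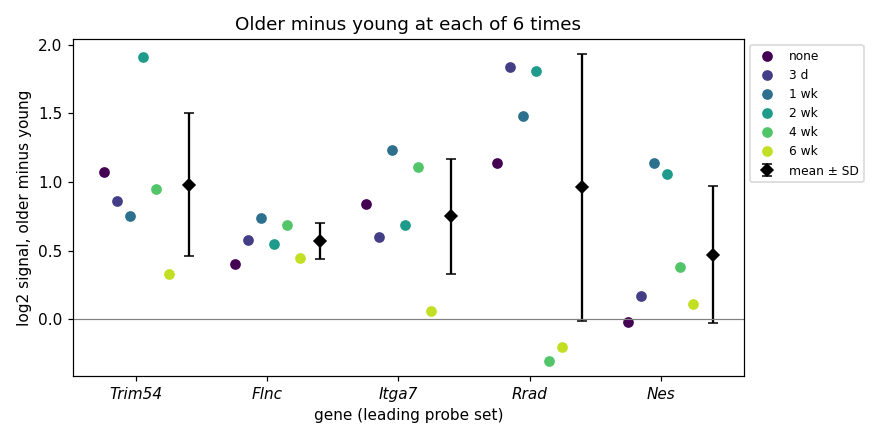
Older minus young difference in log2 signal (vertical axis) for each gene at each of 6 times, with the mean and SD over the times as a diamond and bar. Flnc runs from 0.4 to 0.74, and Rrad and Nes each have times at or below 0.

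Adult rats lay between young and older rats on average for Trim54, Flnc, Itga7 and Nes, and level with older rats for Rrad. Adult minus young, which uses the same young arrays, averaged 0.72 ± 0.55 for Trim54, 0.33 ± 0.24 for Flnc, 0.4 ± 0.25 for Itga7, 0.99 ± 0.65 for Rrad and 0.35 ± 0.34 for Nes (log2, SD over 6 times). Older minus adult averaged 0.25 ± 0.24 for Trim54, 0.24 ± 0.2 for Flnc, 0.35 ± 0.29 for Itga7, -0.03 ± 0.54 for Rrad and 0.13 ± 0.3 for Nes. For Rrad and Nes the step between adult and older was within the spread over times. Older minus adult uses the same older arrays on which the genes were chosen. Both steps are therefore a description, and no rise from adult to older rats is read from them. Adult against the mean of young and older is a contrast orthogonal to older minus young, although earlier results of these arrays were known. It called 0 of the 5 genes in limma (0 at an unadjusted p below 0.05). Of 8740 probe sets 0% were called and 526 lay at an unadjusted p below 0.05. The values were 0.51 ± 0.25 for Rrad (log2, SE, limma adjusted p = 0.81), 0.24 ± 0.16 for Trim54, 0.11 ± 0.13 for Nes, 0.05 ± 0.07 for Flnc and 0.03 ± 0.11 for Itga7, so a position of adult rats nearer to either end was not detectable.

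The comparison of each time with no fracture asks how the genes differed after fracture over all ages. This contrast is orthogonal to the age difference they were chosen on. Unfractured femora were taken at the starting age only, so injury and growth over the following weeks cannot be told apart. The genes split by time course: Rrad, Itga7 and Nes were higher early, and Flnc was lower at 3 days. At 3 days after fracture Rrad had 920.8, 3428.8 and 3294.3 in young, adult and older rats, against 355, 518.1 and 779.7 with no fracture. The groups did not overlap, but how many of all probe sets separate in this way was not counted, so nothing is read from it. Rrad was 4.17-fold higher (log2 2.06 ± 0.41 SE, limma adjusted p = 0.0025). Nes was 1.88-fold higher (0.91 ± 0.22, adjusted p = 0.0067), also without overlap, and Itga7 was 1.7-fold higher (0.77 ± 0.18, adjusted p = 0.0064), with overlap across ages. Flnc was 1.43-fold lower (-0.51 ± 0.11, limma adjusted p = 0.0043) and lower at each of the 3 ages, with overlap across ages. Trim54 was 1.53-fold lower, also at each of the 3 ages, but did not pass the test (-0.61 ± 0.25, adjusted p = 0.08).

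With 3 genes called higher and 1 lower of 5, the background at 3 days was 18.9% of 8740 probe sets called higher and 20.4% called lower. At 1 week the same 3 genes were called higher: Rrad 4.59-fold (2.2 ± 0.41, adjusted p = 0.0022), Itga7 2.32-fold (1.21 ± 0.18, adjusted p = 0.00062) and Nes 1.84-fold (0.88 ± 0.22, adjusted p = 0.0095). Flnc at 0.21 (log2, adjusted p = 0.17) and Trim54 at 0.18 (adjusted p = 0.64) did not pass, and 18% of probe sets were called higher and 17.8% lower. At 2 weeks 1 gene was called, Rrad (2.32-fold higher, 1.21 ± 0.41, adjusted p = 0.043), with 16.1% of probe sets higher and 16.8% lower. At 4 weeks limma called 0 of the 5 (1 at an unadjusted p below 0.05, Flnc, 0.33 ± 0.11, adjusted p = 0.062), against 11.5% of probe sets higher and 9.7% lower. At 6 weeks it called 0 (0 at an unadjusted p below 0.05), against 8.34% higher and 7.11% lower.

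The calls were sensitive to leaving out an age, as were those over all probe sets, whereas the fold changes moved less. Without the adult rats 1742 of 8740 probe sets were called at 3 days and 1051 at 1 week, against 3437 and 3126 with all ages. Of the 5 genes, 1 was called at 3 days (Flnc, -0.47, adjusted p = 0.024) and 0 at 1 week, where Rrad was 2.1 (adjusted p = 0.082), Itga7 1.14 (adjusted p = 0.051) and Nes 0.99 (adjusted p = 0.1). At 3 days without adult rats, Rrad was 1.73 (adjusted p = 0.11), Nes 1.04 (adjusted p = 0.077) and Itga7 0.62 (adjusted p = 0.16). Without older rats limma called 2 at 3 days, Itga7 (0.9, adjusted p = 0.018) and Rrad (2.05, adjusted p = 0.025). Flnc at -0.58 and Nes at 0.8 were then not called (adjusted p = 0.055 each). At 1 week in that fit Nes was 0.53 (adjusted p = 0.16). Without older rats 1844 probe sets were called at 3 days and 1189 at 1 week. Without young rats Trim54 was also called lower at 3 days (-0.61, adjusted p = 0.032). The call of Rrad at 2 weeks was lost without adult (0.95, adjusted p = 0.37) or older rats (1.18, adjusted p = 0.12), and without young rats Nes was called there too (0.81, adjusted p = 0.028).

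Some calls also changed with the probe set, the fit or the RNA quality measure. The second Flnc probe set was -0.25 at 3 days (limma adjusted p = 0.11), so the lower Flnc signal there was called with only one of its probe sets, and it was 0.53 ± 0.12 at 1 week (adjusted p = 0.0048) and 0.58 ± 0.12 at 4 weeks (adjusted p = 0.0072), where the leading set was not called. With the actin 3'/5' ratio as covariate, Flnc was -0.46 at 3 days (adjusted p = 0.15) and Nes was 1.04 at 3 days (adjusted p = 0.098) and 0.98 at 1 week (adjusted p = 0.087). Rrad and Itga7 were called at both times in that fit, in which 1181 probe sets were called at 3 days and 1022 at 1 week. Their 3-day values were larger in it, 3.31 in place of 2.06 for Rrad and 1.42 in place of 0.77 for Itga7. The ratio was 1.48 to 1.88 at these times and 2.1 to 2.61 with no fracture, without overlap. This fit therefore cannot tell RNA quality and time apart. With only the arrays of the times compared, the values were the same, but 0 of 5 genes passed at 3 days (adjusted p = 0.051 to 0.067 for the 4 genes called above) and only Rrad at 1 week (adjusted p = 0.039), with 902 and 356 probe sets called.

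**Figure D3:**
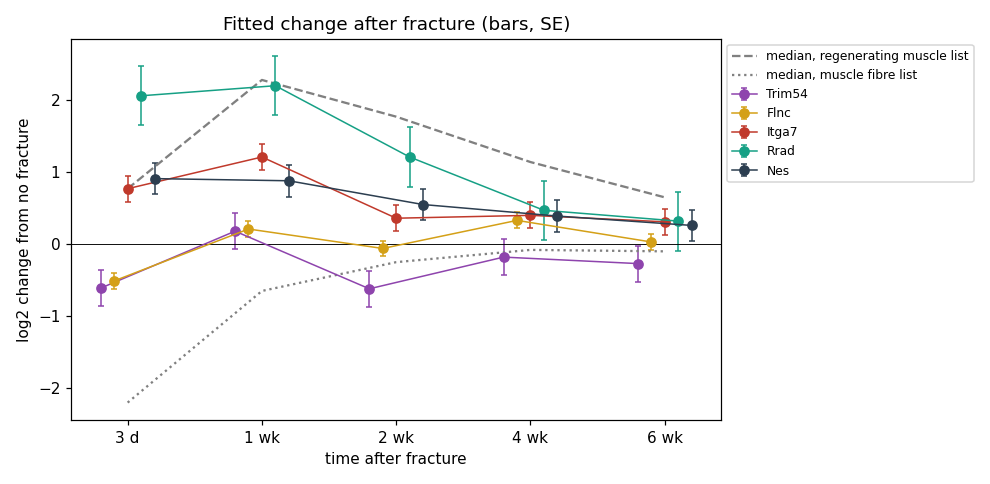
Fitted log2 change from no fracture (vertical axis, bars SE) at 5 times for the 5 genes, with the medians of the regenerating muscle list and the muscle fibre list as grey lines. At 3 days the muscle fibre median is -2.2 and the regenerating muscle median 0.77, and Rrad lies above both at 2.06.

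Markers of muscle moved at the same times. Of 24 measured muscle fibre genes, 1 was called higher and 22 lower at 3 days (median log2 -2.2, against -0.08 over all probe sets), and their summed signal was 52451 to 61389 there, against 195921 to 229878 with no fracture. The sum was 112264 to 151982 at 1 week and 162278 to 186374 at 2 weeks, again below the range with no fracture. The shares called over all probe sets were 18.9% higher and 20.4% lower at 3 days and 18% higher at 1 week. Of 14 measured genes of regenerating muscle, 8 were called higher at 3 days and 13 at 1 week (medians 0.77 and 2.28). Their sums were 6857 to 11608 and 26408 to 43666, against 5296 to 7318 with no fracture. Myog, a transcription factor of muscle differentiation, was 9.17-fold higher at 3 days and 10.7-fold at 1 week, and Chrna1, the acetylcholine receptor alpha chain, 6.14-fold and 16.4-fold. With the muscle fibre mean in the fit, 0 of 5 genes were called at 3 days, where 0 of all probe sets were called, and 0 at 1 week, where 371 were called. At 1 week Rrad was then 2.16 ± 0.8 (log2, SE, limma adjusted p = 0.13), Itga7 1.33 ± 0.35 (adjusted p = 0.063) and Nes 0.51 ± 0.4 (adjusted p = 0.45). At 3 days Rrad was 1.94 ± 2.23, Itga7 1.13 ± 0.98, Nes -0.28 ± 1.11, Flnc -0.15 ± 0.6 and Trim54 1.33 ± 1.23. Because the fibre markers themselves fell at 3 days, this fit cannot tell fibre content and time apart. The part of fibre content in these values was not tested.

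The sum of the muscle fibre markers was higher in older than in young rats at 2 of 6 times, and the median older minus young was -0.07, with 0 of 24 called. For regenerating muscle the sum was higher in older rats at 4 of 6 times, the median was 0.55, and 1 of 14 was called, Myf6, a myogenic factor (0.86 log2, limma adjusted p = 0.0029). The smooth muscle sum was higher in older rats at 6 of 6 times, with a median of 0.63 and 0 of 6 called. The Schwann and nerve sum was also higher at 6 of 6, although the median over its 9 genes was -0.15 and only 2 were positive. The endothelial sum was higher at 4 of 6, with a median of 0.12 over 5 genes. At 3 days 1 of 9 nerve genes was called higher and 2 lower, and 1 of 5 endothelial genes was called higher, beside 18.9% higher and 20.4% lower over all probe sets. The part of these cells in the values of the 5 genes was not tested.

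The neighbours of Flnc and Trim54 in the Z-disc and sarcomere were mostly lower at 3 days. Of 15 measured genes in that list 3 were called higher and 8 lower (median -0.87), beside 18.9% and 20.4% over all probe sets. Ldb3, a Z-disc scaffold, was 12.6-fold lower (-3.65, limma adjusted p = 3.3e-05), whereas Ankrd1, a stretch-responsive ankyrin repeat protein, was 3.71-fold higher (1.89, adjusted p = 0.00033). At 1 week 4 were called higher and 2 lower, beside 18% and 17.8% over all probe sets. Ankrd1 was then 10.6-fold higher and Csrp3, a muscle LIM protein, 3.51-fold. None of the 15 was called for older against young, where all 15 values were positive (median 0.26).

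Among the laminin receptors and costamere proteins around Itga7, 6 of 15 were called higher and 2 lower at 3 days (median -0.11). At 1 week 6 were called higher and 0 lower (median 0.36). The shares of all probe sets were 18.9% higher and 20.4% lower at 3 days and 18% and 17.8% at 1 week. Itgb1, the integrin beta 1 chain that pairs with the Itga7 product, was 1.69-fold higher at 3 days (limma adjusted p = 0.014) and 1.58-fold at 1 week (adjusted p = 0.029). Older minus young was 0.2 for Itgb1 (adjusted p = 0.62), and 0 of the 15 were called.

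The list of muscle ubiquitin ligases and atrophy genes, to which Trim54 is related, had 5 of 10 called higher and 2 lower at both 3 days and 1 week. Background shares were 18.9% higher and 20.4% lower at 3 days and 18% and 17.8% at 1 week. Trim63 (MuRF1), a close relative of Trim54, was 1.41-fold higher at 3 days and 1.42-fold at 1 week (limma adjusted p = 0.04 each). Trim54 itself was -0.61 and 0.18 on the log2 scale at these times. Trim63 was 0.08 for older against young (adjusted p = 0.86).

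Of 19 genes of Ras-like GTPases and calcium channels around Rrad, 3 were called higher and 8 lower at 3 days (median -0.59). Among all probe sets 18.9% were called higher and 20.4% lower at that time. Cacna1s, the pore of the skeletal muscle calcium channel, was 4.36-fold lower at 3 days (limma adjusted p = 3.4e-05), when Rrad was 4.17-fold higher. Casq1, the calcium store protein of fast fibres, was 13.7-fold lower (adjusted p = 2.2e-05). At 1 week 6 were called higher and 4 lower, beside 18% and 17.8% of all probe sets, and Cacna1s was -0.22 (adjusted p = 0.46). Both genes also stand in the muscle fibre list.

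Of 16 intermediate filament and small heat shock genes around Nes, 3 were called higher and 3 lower at 3 days and 3 higher and 2 lower at 1 week. This was near the shares over all probe sets, 18.9% higher and 20.4% lower at 3 days and 18% and 17.8% at 1 week. Nothing is read from these counts. Vim, the vimentin gene, whose product forms filaments with nestin, was 3.6-fold higher at 3 days and 3.68-fold at 1 week (limma adjusted p = 0.00031 and 0.00043). Des, the muscle filament desmin, was 0.28 at 3 days (adjusted p = 0.39) and 1.82-fold higher at 1 week (adjusted p = 0.018). For older against young, Des was 0.84 (adjusted p = 0.073) and Vim 0.1 (adjusted p = 0.9).

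Whether the fracture response differed between older and young rats was asked with an interaction of age and fracture. It is orthogonal to older minus young, although earlier results of these arrays were known when the genes were chosen. In limma 0 of the 5 genes were called (0 at an unadjusted p below 0.05), with 3.2% of 8740 probe sets called. The values for older minus young were 0.59 ± 0.39 for Nes (log2, SE, adjusted p = 0.59), 0.2 ± 0.21 for Flnc, -0.11 ± 0.53 for Trim54, -0.21 ± 0.83 for Rrad and -0.1 ± 0.37 for Itga7. For adult minus young 0 of 5 were called as well (0 at an unadjusted p below 0.05), with 6.45% of probe sets called. The standard errors were as large as or larger than most of these values, so differences of that size were not detectable with 3 unfractured arrays.

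By phase, 0 of 5 genes were called in limma at 3 days (0 at an unadjusted p below 0.05, 1.64% of probe sets called), at 1 and 2 weeks (1 unadjusted, 2.22%) and at 4 and 6 weeks (1 unadjusted, 3.02%). At 1 and 2 weeks Nes was 1.12 ± 0.19 (log2, SE, adjusted p = 0.073), the older minus young difference beyond that with no fracture. At 4 and 6 weeks Rrad was -1.38 ± 0.27 on the same measure (adjusted p = 0.08). Neither passed the threshold after adjustment. Marker lists moved in the same contrasts. The muscle fibre median was -0.6 at 1 and 2 weeks (4 of 24 positive) and -0.41 at 4 and 6 weeks (2 of 24 positive), with 0 called in each. The smooth muscle median was 0.79 (1 of 6 called higher) and 1.12 (3 of 6 called higher) in these phases, and the regenerating muscle median 0.38 and 0.03, with 1 of 14 called higher in each. Over all fractured times the muscle fibre median of the interaction was -0.42, with 5 of 24 positive and 0 called. Their part in the values of Nes and Rrad was not tested.

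The 3 Itga7 probe sets followed each other over the arrays (Pearson r = 0.88 to 0.9 over 18 arrays that share ages and times, as a description) but differed in the interaction. Probe set X74293_s_at read 125.2, 111.7 and 117.3 with no fracture in young, adult and older rats, so the ages lay together. After fracture it read 154.1, 183.8, 99.2, 117.4 and 97.6 in young, 257.2, 360.5, 157, 208.1 and 170.5 in adult and 272.3, 531.6, 226.7, 292.6 and 201.9 in older rats. Older exceeded young at each of the 5 fractured times. The same held in both other Itga7 probe sets, and the gene was chosen for that direction. In X74293_s_at the comparison with no fracture rests on 1 unfractured array at each age. Its interaction for older minus young was 1.28 ± 0.25 (log2, SE, limma adjusted p = 0.027), whereas the leading probe set X65036_at gave -0.1 ± 0.37 (adjusted p = 1) and X65036_g_at gave 0.47. For adult minus young, X74293_s_at gave 0.97 ± 0.25 (SE, limma adjusted p = 0.054), which was not called. The older minus young call was lost with quantile normalization (1.07, adjusted p = 0.097) and with log2(signal + 50) (1, adjusted p = 0.13). It was also lost without the arrays of 1 week (1.19, adjusted p = 0.078), 2 weeks (1.27, adjusted p = 0.081) or 4 weeks (1.24, adjusted p = 0.083).

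**Figure D4:**
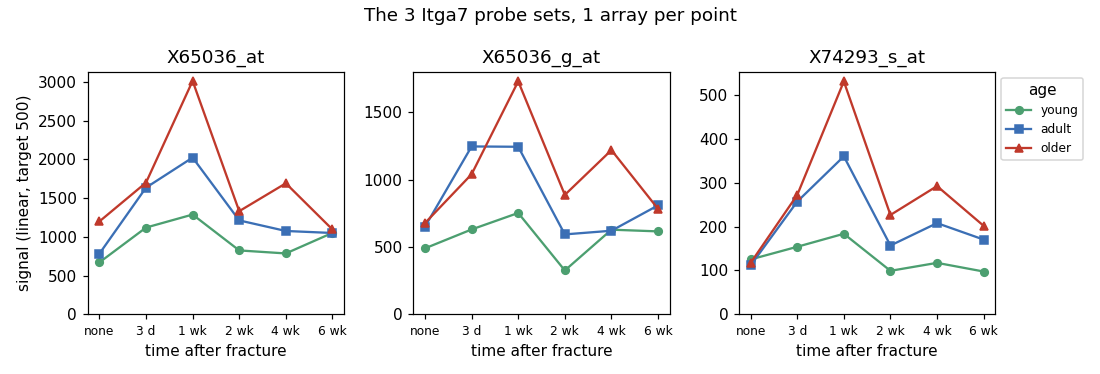
Signal (linear scale, array target 500) of the 3 Itga7 probe sets against time after fracture, with 1 array per point and 1 line per age. In X74293_s_at the ages start together at 111.7 to 125.2 and older lies above young at all 5 fractured times, and in X65036_at older is already above young with no fracture.

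The likeness of the genes across the 18 arrays is given as a description, since the arrays share ages, times and scaling. Rrad and Nes had r = 0.84, Itga7 and Nes 0.82, and Itga7 and Rrad 0.81. Trim54 and Flnc had r = 0.74, and Flnc had 0.04 with Rrad and 0.16 with Nes. Values in between were 0.56 for Trim54 and Itga7, 0.39 for Itga7 and Flnc, 0.34 for Trim54 and Nes and 0.33 for Trim54 and Rrad. Among 3173 other genes, the closest to Itga7 were Myf6 (0.92), Klf10 (0.91), Ackr3 (0.91), Myog (0.88) and Des (0.87). The closest to Rrad were Nes, Chrnd, Nog and Socs3 (0.84 each) and Cxcl13 (0.83). Nes was closest to Tubb2b and Edf1 (0.88 each) and to Csrp2, Cxcl13 and Csrp1 (0.86 each). Trim54 was closest to Ndrg2 (0.9), Cipc (0.79), Svil and Gng11 (0.77 each) and Fggy (0.76), and Flnc to Ndrg2 (0.87), Casq2 and Smpx (0.83 each) and Scd and Phka1 (0.81 each).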

How the data were processed

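RNA of the femoral mid-shaft was measured on 18 Affymetrix rat arrays, one series of a larger experiment. The deposited values are signal intensity, which the authors computed with Microarray Suite and scaled to a target of 500 on every array. The 2% trimmed mean was 500.7 to 500.8 in each column, so values are relative to an array's total. Detection calls were not used, and 0 columns were left out.

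Of 8799 probe sets, 59 controls were left out and 8740 tested. The platform annotation gave 7006 of them 1 symbol, 308 several and 1426 none. Signals below 20 were set to 20 before log2. The additive fit of age and time to every probe set (limma 3.58.1, R 4.3.3) had 10 residual degrees of freedom and a trend in the moderation. Interactions of age with fracture left 8 residual degrees of freedom and those with phase 4. Adjusted p-values are Benjamini-Hochberg values over all 8740 probe sets, called below 0.05. The time contrasts, the older by fracture interaction and adult against the mean of young and older were orthogonal to older minus young. Adult minus young and older minus adult were not. Age is a block in every time comparison except the methods' t-test. The script was tested on simulated data. The number of arrays limits the precision.

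The 5 genes, the gene lists and the tests were chosen with earlier results of these data known. Named from a list were genes among the 4 with the largest called change and close partners of a member (Itgb1, Trim63 and Des were picked after their values were seen), and per member the 5 most like genes with a mean signal of at least 100. Gene identity was matched to RefSeq by gene ID for 5 of 5 members. Alternatives were a floor of 100, log2(signal + 50), median centring, quantile normalization, a filter at a mean signal of 200, the actin ratio or the muscle fibre mean as covariate, the next probe set of a gene, only the arrays of the times compared, the methods' t-test and leaving out each age or time in turn.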

Additional observations from a re-analysis of the deposited data

Results flagged for a closer look

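One of 3 Itga7 probe sets, X74293_s_at, showed a larger fracture response in older than in young rats, with an interaction of 1.28 ± 0.25 on the log2 scale (SE, limma adjusted p = 0.027). It was singled out because the difference between the ages passed its own test, and among all probe sets of the 5 genes it was the only one that did. Older exceeded young at 5 of 5 fractured times, as it did in both other Itga7 probe sets, and Itga7 was chosen for that direction. With no fracture older did not exceed young, at 117.3 in older and 125.2 in young rats. The comparison with no fracture rests on 1 unfractured array at each age. The brighter Itga7 probe sets gave -0.1 and 0.47 and were not called. In X74293_s_at the interaction for adult minus young was similar in size, 0.97 ± 0.25 (log2, SE, limma adjusted p = 0.054), but was not called. The call was lost with quantile normalization (1.07, adjusted p = 0.097), with log2(signal + 50) (1, adjusted p = 0.13) and without the arrays of 1 week (adjusted p = 0.078), 2 weeks (adjusted p = 0.081) or 4 weeks (adjusted p = 0.083).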

How the results depend on the processing

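The older minus young averages of the 5 genes kept their sign and moved by less than the spread over times under log2(signal + 50), a floor of 100, median centring, quantile normalization and leaving out each time. With the next probe set Nes was -0.23 in place of 0.47 and Flnc 0.83 in place of 0.57. The counts of genes called after fracture moved. At 3 days, with 4 called, the actin ratio as covariate and the next probe set gave 2 each, the muscle fibre mean as covariate 0, only the arrays of the times compared 0, and the methods' t-test 1 (Nes) after adjustment and 1 at an unadjusted p below 0.005, which the study set for its array software. Leaving out an age gave 1 to 5. At 1 week, with 3 called, the actin ratio gave 2, the next probe set 3 (Flnc in and Nes out), the muscle fibre mean 0, only the arrays compared 1, the methods' t-test 0 and 0, and leaving out an age 0 to 3. At 2 weeks, with 1 called, median centring, a filter at 200 and the actin ratio gave 2 each, and a floor of 100, the muscle fibre mean, only the arrays compared and the methods' t-test (adjusted and unadjusted) gave 0 each. Leaving out an age gave 0 to 2. At 4 weeks, with 0 called, the actin ratio and the next probe set gave 1 each, and at 6 weeks the actin ratio gave 1. The cause was not tested, except that the muscle fibre mean left 0 probe sets called at 3 days, and only the arrays compared left fewer samples.

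Signs turned in 36 single values. For the next probe set of Nes, which lay at the floor, the time changes were -0.75, -0.36, -0.71, -0.7 and -0.72, and the next sets gave Itga7 -0.11 and Flnc 0.23 at 2 weeks and Flnc -0.08 at 6 weeks. The muscle fibre mean as covariate gave Trim54 1.33 and Nes -0.28 at 3 days, and the actin ratio gave Trim54 0.26 at 4 weeks. Flnc was between -0.21 and 0.06 at 2 weeks and between -0.01 and 0.06 at 6 weeks without 1 age. For older by fracture, the actin ratio gave Trim54 0.03, Itga7 0.04 and Rrad 0.05, the muscle fibre mean Trim54 0.3, and the next sets Itga7 0.47 and Flnc -0.13. Without 1 fractured time, Trim54 was -0.35 to 0.05, Itga7 -0.22 to 0.07 and Rrad -0.44 to 0.1. For adult by fracture, quantile normalization gave Trim54 0, the actin ratio Trim54 -0.32, Itga7 -0.21 and Rrad -0.22, and Nes was 0.07 with median centring and 0.16 with the next set. Without 1 time, Trim54 was -0.15 to 0.23 and Nes -0.16 to 0.06. For adult against the mean of young and older, leaving out 1 time gave Itga7 -0.02 to 0.07 and Flnc -0.02 to 0.1.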
